A study of Mus musculus with 18 samples.

Results

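DNA methylation was described here at the olfactory and vomeronasal receptor genes of mouse embryonic stem cells. The members were CpGs inside or within 2 kb of autosomal protein-coding genes whose symbols start with Olfr, Vmn1r or Vmn2r, and each had to be read at least once in all 18 libraries. This left 16170 CpGs of the 21867550 that the deposited table lists. Of them 11057 lay at olfactory receptor genes (Olfr), 2012 at vomeronasal type 1 receptor genes (Vmn1r) and 3101 at vomeronasal type 2 receptor genes (Vmn2r). The annotation holds 1457 such genes, of which 1376 had a member CpG. By family, 1102 of 1128 Olfr, 161 of 208 Vmn1r and 113 of 121 Vmn2r genes had one. Of the members, 474 were shared by 2 or more receptor genes, so neighbouring genes were not always measured independently.

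All cells were mouse ES cells with a knockout of the maintenance methyltransferase DNMT1 that were transfected with the pPyCAGIP vector carrying DNMT1 and selected with puromycin as stable lines. The transgene was wild type (WT) in 3 libraries. In the other groups of 3 it carried W796A, W465A, both W465A and W796A (W465A/W796A), both W464A and W465A (W464A/W465A), or W464A, W465A and W796A together (W464A/W465A/W796A). The labels call the 3 libraries of a group biological replicates and say that several stable lines were made per group, but not which line each library came from, so p-values measure the spread between these libraries. The assay was enhanced reduced representation bisulfite sequencing, in which DNA is cut by the enzymes MspI, BfaI and MseI and a read shows whether each CpG was methylated. Methylation shows neither expression nor ES cell identity, and neither was checked. Words such as lost, kept, fell and rose compare groups of rescued cells, and no cells were followed over time. Cells without a DNMT1 transgene were not analysed, so the level that remains without DNMT1 was not measured here.

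Olfactory and vomeronasal receptors are G-protein-coupled receptors of sensory neurons in the nose. Each olfactory neuron expresses a single receptor allele, and the silent receptor clusters of those neurons are packed in heterochromatin that carries trimethylated H3K9 and H4K20. In DNMT1, W464 and W465 lie in the RFTS domain, known to bind H3 tails with heterochromatic marks, and W796 lies in the BAH1 domain, known to bind trimethylated H4K20. The receptor families are not expressed in ES cells as far as is generally known, and none of these histone marks was measured in the libraries used here.

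The sequences below show what was read at such genes. Each is a window of 150 bases on the plus strand of the GRCm38 reference, placed where the member CpGs of a named gene had most reads, and capitals mark the CpGs. The first 7 were chosen so that together they span coding exons, introns and flanks, and the 3 families. Of these genes, Olfr1245 had one of the largest rises from W465A to W465A/W796A, and Olfr113 had the highest mean level in WT. The last was chosen because it was nearly unmethylated in every group.
Olfr545, coding exon, chr7:102494144-102494293: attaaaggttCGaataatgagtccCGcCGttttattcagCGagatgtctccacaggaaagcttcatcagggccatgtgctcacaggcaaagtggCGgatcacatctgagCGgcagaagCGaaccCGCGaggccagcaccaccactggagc
Olfr78, coding exon, chr7:102742501-102742650: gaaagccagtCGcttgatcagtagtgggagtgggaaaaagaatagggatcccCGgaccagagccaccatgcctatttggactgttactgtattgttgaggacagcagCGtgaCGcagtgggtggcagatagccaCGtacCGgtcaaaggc
Olfr1245, flank, chr2:89580111-89580260: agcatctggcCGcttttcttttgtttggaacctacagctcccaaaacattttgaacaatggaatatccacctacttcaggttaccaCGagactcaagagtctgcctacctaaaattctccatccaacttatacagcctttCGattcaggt
Olfr113, flank, chr17:37573623-37573772: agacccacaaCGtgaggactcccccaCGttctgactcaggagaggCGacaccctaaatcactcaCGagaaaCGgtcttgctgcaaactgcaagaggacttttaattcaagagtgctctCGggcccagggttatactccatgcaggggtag
Vmn1r88, intron, chr7:13172671-13172820: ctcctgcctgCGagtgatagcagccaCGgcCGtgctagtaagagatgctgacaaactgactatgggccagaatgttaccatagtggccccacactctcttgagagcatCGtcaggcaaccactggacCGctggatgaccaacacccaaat
Vmn2r26, intron, chr6:124035750-124035899: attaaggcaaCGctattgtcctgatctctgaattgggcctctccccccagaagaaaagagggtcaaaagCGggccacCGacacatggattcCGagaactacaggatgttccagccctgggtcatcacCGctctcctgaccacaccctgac
Vmn2r53, intron, chr7:12588257-12588406: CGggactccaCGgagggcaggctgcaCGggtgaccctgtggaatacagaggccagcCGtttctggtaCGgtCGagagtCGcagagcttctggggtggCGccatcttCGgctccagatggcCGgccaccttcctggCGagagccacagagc
Olfr94, coding exon, chr17:37197197-37197346: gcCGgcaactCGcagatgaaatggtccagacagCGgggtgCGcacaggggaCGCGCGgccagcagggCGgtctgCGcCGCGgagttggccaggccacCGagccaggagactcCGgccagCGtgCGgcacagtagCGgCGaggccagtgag

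The Vmn2r53 window, with 84 to 640 reads per library at 8 member CpGs, was methylated at 72.6%, 79.8% and 84.0% of reads in the 3 WT libraries. It stood at 19.1%, 11.5% and 13.5% in W465A, at 36.5%, 38.1% and 31.6% in W465A/W796A, and at 6.56%, 12.6% and 5.37% in W464A/W465A. The 3 mutant groups thus did not overlap with WT or with each other except for W464A/W465A and W465A. In the Vmn1r88 intron the WT libraries stood at 83.3%, 87.5% and 95.3%, those of W465A at 42.9%, 46.3% and 40.3%, and those of W465A/W796A at 68.4%, 72.7% and 60.3%. The Vmn2r26 window was at 54.1%, 79.4% and 67.9% in WT against 32.1%, 16.7% and 16.3% in W465A. The CpG-rich Olfr94 window, with 361 to 1150 reads, stood at 1.12%, 2.65% and 1.38% in WT and at 0.611%, 0% and 0.696% in W465A, so there was little methylation to lose. Of the 69 member CpGs of Olfr94, 58 also lay within 2 kb of another gene. The shallower Olfr1245 window, with 9 to 57 reads, was at 55.6%, 85.0% and 94.4% in WT and at 28.6%, 0% and 2.78% in W465A. In W465A/W796A it was at 81.5%, 52.8% and 51.5%, which overlapped with WT.

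Receptor genes were read less deeply than other genes. Of the 84728 CpGs listed at receptor genes 19.1% were read in all libraries, against 34.4% at other autosomal protein-coding genes. A median member CpG had 5 to 11 reads per library, and the member CpGs together had 93386 to 216173 reads, out of 59776439 to 138978763 calls per library. Local CpG density was counted within 250 bp, both sides together, with the CpG itself included. The receptor CpGs were sparse, with a median of 4 such CpGs against 8 at other genes. They were repeat-masked in 27.8% of cases against 10.3%, and 69.3% lay within 100 bp of a site of MseI (TTAA) against 55.8%. Only 20.2% lay within 100 bp of a site of MspI (CCGG), against 39.0% at other genes. WT replicate 1 and W796A replicate 1 stood apart from their groups at the receptor genes, at 56.7% against 74.2% and 74.6%, and at 55.1% against 80.5% and 75.7%. Over all reads of the table they were at 48.0% and 43.8% where the other WT and W796A libraries were at 60.8% to 62.5%. The cause was not tested, and values without both libraries are given where they change a statement.

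Receptor genes were highly methylated with WT DNMT1 and much less so with W465A. The receptor level, the methylated share of all reads at member CpGs, was 68.5% ± 10.2 in WT and 70.4% ± 13.5 in W796A (SD, n = 3 libraries each). W465A libraries were at 28.3%, 17.9% and 18.6%, with a mean of 21.6% ± 5.83. W464A/W465A libraries were at 12.9%, 18.6% and 12.4%, and those of W464A/W465A/W796A at 14.9%, 17.0% and 13.3%. Between these and WT lay W465A/W796A, at 47.0%, 39.0% and 39.5%. No library of those 4 mutants reached the lowest WT library.

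The order of the group means was the same in each family for WT, W465A/W796A, W465A and W464A/W465A. At Olfr genes the mean level was 69.0% in WT, 42.5% in W465A/W796A, 22.1% in W465A and 15.0% in W464A/W465A. For Vmn1r genes the WT libraries were at 53.6%, 68.0% and 70.6% and the W465A libraries at 26.7%, 17.3% and 17.5%. For Vmn2r genes they were at 57.3%, 75.1% and 75.6% in WT, and at 27.5%, 16.4% and 18.7% in W465A. As a share of the WT mean, W465A kept 31.9% at Olfr, 32.0% at Vmn1r and 30.1% at Vmn2r genes. The difference between vomeronasal and olfactory genes was tested within library. The effect of W465A on vomeronasal genes differed from that on olfactory genes by -0.27 points (exact permutation test, two-sided, p = 0.615), and that of W796A by 0.30 points (exact p = 0.445). The effect of adding W464A differed by 1.10 points (exact permutation p = 0.025, adjusted p = 0.05 over 8 tests), which did not pass the threshold of 0.05. That of W464A/W465A differed by 0.83 points (exact p = 0.11). Counting only CpGs inside the genes, the W465A effect on vomeronasal genes was larger by 2.77 points (-2.77, adjusted p = 0.0133), so this comparison depends on whether the flanks are counted.

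**Figure D1:**
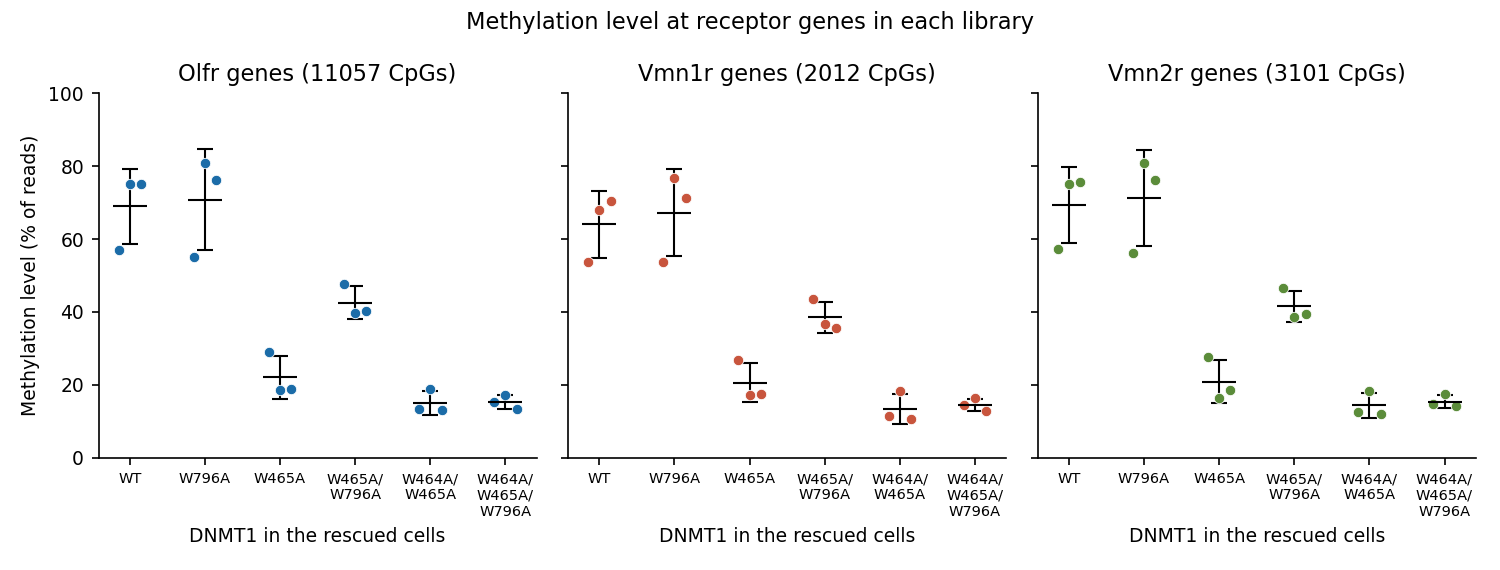
Methylation level in percent of reads (y axis) at Olfr, Vmn1r and Vmn2r genes (panels) in the 6 groups (x axis). Points are libraries, horizontal bars are means and vertical bars are SD over 3 libraries; in each family the W465A libraries lie below the lowest WT library and the W465A/W796A libraries lie between them.

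Across backgrounds, W465A lowered the receptor level by 37.7 points, the mean of -46.9 in cells without W796A and -28.6 in cells with it (exact stratified permutation test, two-sided, value -37.7, p = 0.005, adjusted p = 0.03 over 12 tests, lower in 6 of 6 libraries). W464A/W465A lowered it by 54.6 points (-54.6, exact p = 0.005, adjusted p = 0.03, lower in 6 of 6). Adding W464A to W465A lowered it by 16.9 points (-16.9, exact p = 0.01, adjusted p = 0.04). This last effect was made of -6.99 points without W796A, where the libraries overlapped, and -26.7 points with W796A, where they did not. It failed the adjusted threshold without W465A replicate 1 or 3, or without W464A/W465A replicate 1 or 3 (-15.2 to -17.6, adjusted p 0.06 to 0.1). W796A raised it by 7.54 points over the 3 backgrounds (exact p = 0.0865, adjusted p = 0.133), which did not pass. Without W796A replicate 1 this effect was 10.1 points with an adjusted p of 0.0428, and without both low libraries 8.13 points with 0.04 (exact permutation tests), so the call rests on them.

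Pairs of groups have 3 libraries against 3, for which an exact permutation test cannot go below p = 0.1. W465A/W796A exceeded W465A by 20.2 points (exact p = 0.1), with every library of the first above every library of the second. W796A exceeded WT by 1.95 points (exact p = 0.8), and W464A/W465A/W796A exceeded W464A/W465A by 0.47 points (exact p = 0.8). Against WT, the difference was -46.9 points for W465A, -53.8 for W464A/W465A and -26.7 for W465A/W796A. It was -53.4 points for W464A/W465A/W796A (each exact p = 0.1 and adjusted p = 0.133). The W796A effect was 20.2 points in the W465A background, 1.95 in WT and 0.47 in W464A/W465A. The first exceeded the second by 18.2 points (exact permutation test within background, p = 0.185) and the third by 19.7 points (exact p = 0.065, adjusted p = 0.195 over 3 tests), a test added after the data were seen. These tests relabel the libraries in both backgrounds, so they assume no W796A effect in either and do not test for equal effects. They therefore cannot decide whether the W796A effect differed between backgrounds.

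With W465A and with W464A/W465A, receptor genes lay further below their WT level than other protein-coding genes of like CpG density. Other genes, standardised to the local CpG density of the receptor CpGs, were at 66.9% ± 7.77 in WT, close to the receptor level. In W465A they stood at 28.8% ± 6.01 and kept 43.1% of the WT level, where receptor genes kept 31.6%. In W464A/W465A they kept 31.7% against 21.4%, and in W465A/W796A 72.0% against 61.1%. Within library, the receptor level minus the level of other genes was -1.30, 1.87 and 4.08 points in WT and -7.43, -7.27 and -6.96 points in W465A. It was -5.57, -7.58 and -6.03 points in W465A/W796A and -6.67, -6.11 and -6.97 in W464A/W465A. All libraries with W465A were below all libraries without it. Whether the same gap is present in cells without DNMT1 was not tested.

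The W465A effect was larger at receptor genes by 9.08 points (-9.08, exact stratified permutation test, p = 0.005, adjusted p = 0.02 over 8 tests), and that of W464A/W465A by 8.15 points (-8.15, exact p = 0.005, adjusted p = 0.02). The effect of adding W464A was smaller in size by 0.94 points at receptor genes (0.94, exact p = 0.01, adjusted p = 0.0267). This small difference missed the adjusted threshold without any 1 of 7 libraries (0.64 to 1.03 points, adjusted p 0.0505 to 0.08, exact permutation tests). The 7 were W465A replicates 1 and 2, W464A/W465A replicate 2, W465A/W796A replicate 2 and all W464A/W465A/W796A replicates. The difference was 0.02 points at CpGs with at least 3 reads in all libraries and turned to -0.69 points at 5 reads. The W796A effect differed by 1.24 points (exact p = 0.0585, adjusted p = 0.0936). On the log2 scale it differed by 0.13 (adjusted p = 0.02, exact permutation test), so that call depends on the scale.

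The sequence between the receptor genes was measured in the same way. The CpGs that lie between the receptor genes of a cluster, more than 2 kb from any protein-coding gene, numbered 36401. Standardised to the density of the receptor CpGs, they were at 70.2% ± 8.82 in WT and 23.2% ± 5.98 in W465A and kept 33.0% of the WT level, against 31.6% at the receptor CpGs of the same clusters. The W465A effect at receptor genes differed from that between them by -0.69 points (exact permutation test, p = 0.295), and the W464A/W465A effect by 0.34 points (exact p = 0.62). CpGs outside all protein-coding genes kept 39.7% in W465A, and against them the W465A effect at receptor genes remained larger (-5.63 points). These comparisons with CpGs outside genes were chosen after the data were seen.

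**Figure D2:**
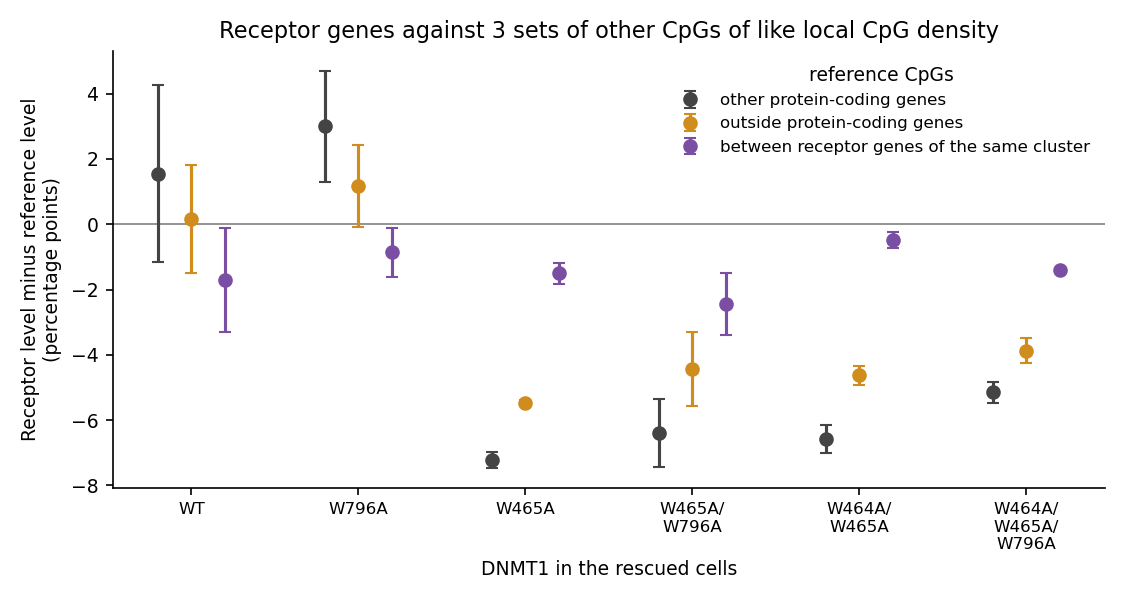
Receptor level minus the level of a reference set of CpGs standardised to the same local CpG density, in percentage points (y axis), in the 6 groups (x axis). Points are means and bars SD over 3 libraries; against other genes and CpGs outside genes the 4 groups with W465A lie at -3.87 points or lower, and against CpGs between receptor genes all 6 groups lie between -2.45 and -0.49.

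Among receptor CpGs the share kept was lowest in the sparsest of 4 density classes. The 10708 members whose surroundings were sparsest, with 1 to 5 CpGs counted up to 250 bp away, kept 28.7% of the WT level in W465A and 19.0% in W464A/W465A. Those with 6 to 10 such CpGs kept 36.8% and 24.9%, and those with 11 to 20 kept 36.1% and 25.4%. Those with over 20 kept 30.7% and 21.9%. These shares were not tested against each other. At other genes the shares in W465A were 42.6%, 44.9%, 42.5% and 37.3% for the same classes, with the lowest in the densest. The 662 receptor CpGs with a count over 20 were at 36.2% ± 8.72 in WT, where other genes of that density were at 5.14% ± 1.29. By position, receptor CpGs in introns, untranslated exons, coding exons and flanks were at 70.2%, 70.4%, 66.5% and 69.1% in WT, and at 22.2%, 22.6%, 22.1% and 21.4% in W465A. Promoters, taken as 500 bp either side of a transcription start, were at 57.2% ± 9.76 in WT. Vmn1r promoters were lowest, at 22.9% ± 4.14 over 174 CpGs, and Olfr and Vmn2r promoters were at 67.6% and 69.7%. Of all Vmn1r members, 87 also lay within 2 kb of another protein-coding gene and were at 1.24% in WT. The other 1925 were at 71.5%. Vmn1r promoters were not measured without those 87, so their low level may not belong to the family. Repeat-masked receptor CpGs kept 30.4% in W465A and the others 32.1%.

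**Figure D3:**
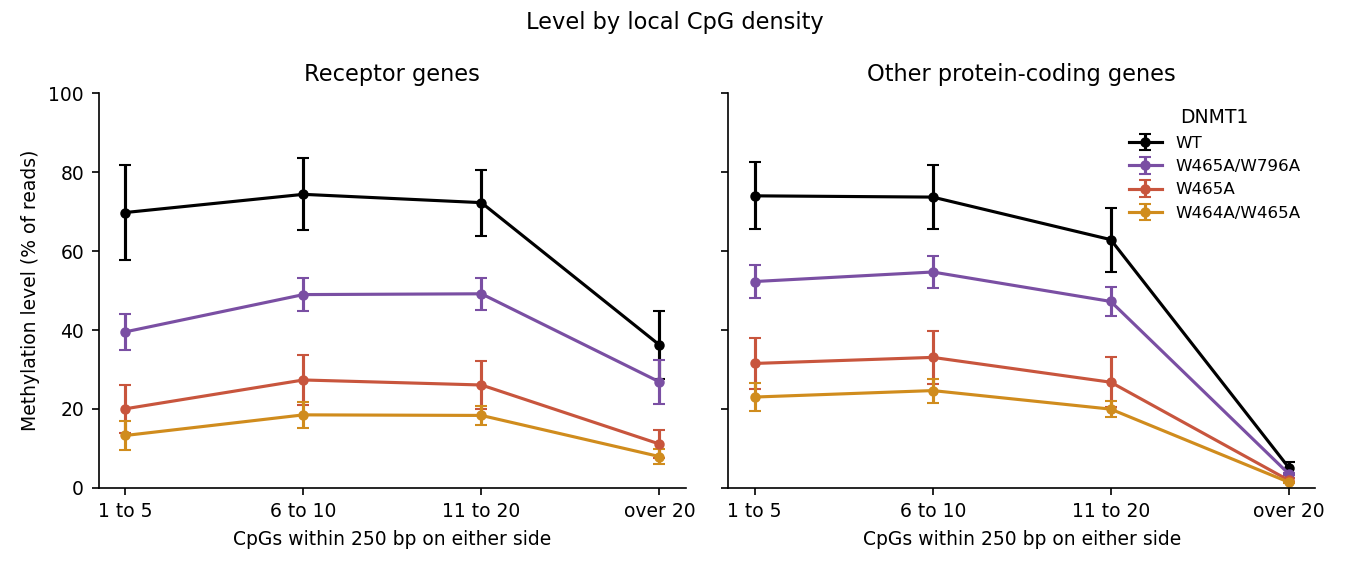
Methylation level in percent of reads (y axis) by the number of CpGs within 250 bp on either side (x axis) at receptor genes (left) and other protein-coding genes (right). Points are means and bars SD over 3 libraries of WT, W465A/W796A, W465A and W464A/W465A; in the densest class WT receptor CpGs are at 36.2% and those of other genes at 5.14%.

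Receptor genes within 1 Mb of each other were joined into 78 clusters, 63 of which had at least 20 member CpGs. Every one of the 63 had all W465A libraries below all WT libraries. The same was true of 98.5% of all 19886 single genes tested below, and 89.1% of those genes were called lower. A cluster sums more reads than most genes, so these shares are a setting for the counts and not a test of them. For W464A/W465A all 63 clusters were below WT (99.3% of single genes, 90.8% called), as they were for the triple mutant W464A/W465A/W796A (99.4%, 91.1% called). For W465A/W796A against WT it held in 62 (64%, 53.9% called). In all 63 every W465A/W796A library was above every W465A library (88.5%, 59.3% called). No cluster had all W796A libraries below WT (0.327%, 0.0% called). The largest cluster, 227 Olfr genes from Olfr987 to Olfr1274-ps on chromosome 2, was at 60.1%, 79.3% and 78.5% in WT and at 27.5%, 14.6% and 16.5% in W465A. In W465A/W796A it was at 51.9%, 39.0% and 41.1%. The 129 genes from Olfr543 to Olfr692 on chromosome 7, next to the beta-globin genes, were at 56.5%, 75.01% and 76.4% in WT and at 28.7%, 17.3% and 18.4% in W465A. The third Olfr cluster by CpGs, from Olfr160 to Olfr986 on chromosome 9, was at 60.3%, 76.9% and 76.4% in WT and at 27.7%, 18.9% and 18.2% in W465A. The exception for W465A/W796A, named for that reason, was the cluster of Vmn2r84 to Vmn2r87 on chromosome 10, at 41.5%, 60.4% and 47.0% in WT and at 50.03%, 36.0% and 34.0% in W465A/W796A.

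Of the vomeronasal clusters with many CpGs, those listed here lay at similar levels. The Vmn1r4 to Vmn1r31 cluster was lower, at 37.7% in WT, and is described further below. Of the type 1 clusters, Vmn1r66 to Vmn1r89 on chromosome 7 was at 64.6%, 79.6% and 83.7% in WT and at 34.2%, 20.8% and 22.5% in W465A. The cluster from Vmn1r188 to Vmn1r223 on chromosome 13 was at 62.3%, 79.6% and 80.2% in WT and at 34.2%, 22.5% and 25.1% in W465A. For type 2 receptors, the cluster from Vmn2r90 to Vmn2r110 on chromosome 17 was at 59.0%, 79.6% and 80.5% in WT and at 26.7%, 14.4% and 17.7% in W465A. The W465A libraries lay below the WT libraries in each of them. The clusters from Vmn2r57 to Vmn2r63 on chromosome 7 and from Vmn2r1 to Vmn2r7 on chromosome 3 kept 29.8% and 34.8% of their WT level in W465A. The highest WT mean was at the single gene Olfr1402 on chromosome 3, at 61.9%, 85.4% and 86.9%.

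Clusters differed in how much they kept. The cluster medians were 69.6% in WT, 41.4% in W465A/W796A, 21.3% in W465A and 14.1% in W464A/W465A. The share of the WT level kept in W465A ran from 17.4% to 49.4%. The lowest shares were at Vmn2r18 on chromosome 5 (17.4% ± 14.3 over 38 CpGs) and at the 24 genes from Vmn2r29 to Vmn2r52 on chromosome 7 (19.2% ± 4.49). The latter were at 46.1%, 66.2% and 68.1% in WT and at 14.5%, 9.18% and 11% in W465A. The highest share was at 6 genes from Olfr70 to Olfr155 on chromosome 4, at 63.1%, 80.2% and 78.8% in WT and at 42.7%, 33.5% and 33.5% in W465A. The single gene Vmn1r1 on chromosome 1 kept 47.7% ± 12, at 44.1%, 35.0% and 26.4% in W465A. These extremes were chosen after their values were seen and were not tested against each other.

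The share kept was also set against CpG density over the clusters. Across the 63 clusters, the number of reference CpGs per kb of the cluster and 50 kb on either side went with the share kept in W465A (Pearson r = 0.54, Spearman rho = 0.48) and in W464A/W465A (r = 0.59, rho = 0.52). Its correlation with the WT level was weaker (r = 0.19). These are descriptions over clusters that share the same libraries, depth and base composition, and clusters are not replicates. The Olfr70 to Olfr155 cluster, with 12.1 CpGs per kb, and the Vmn1r1 locus, with 11.6, lay at the dense end. The single gene Olfr718-ps1, with 13.3 CpGs per kb, kept 28.9%. It was named after its values were seen.

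**Figure D4:**
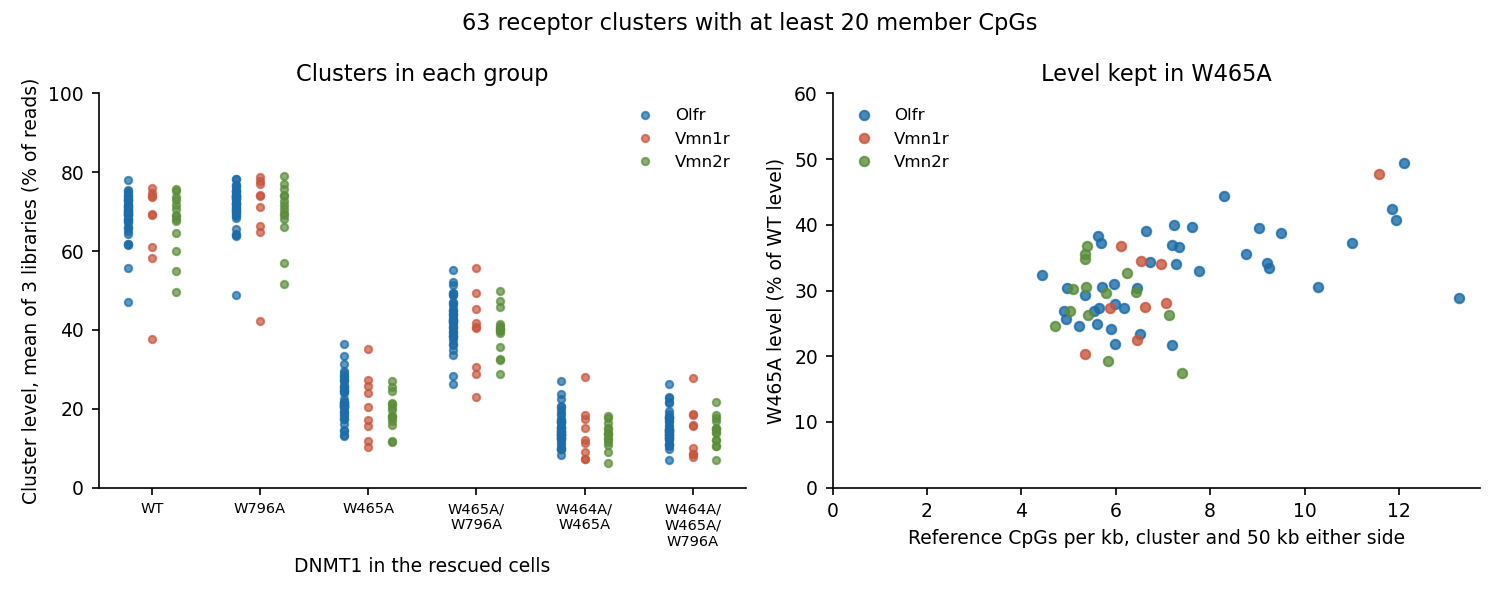
Left, level of each of 63 clusters as the mean of 3 libraries in percent of reads (y axis) in the 6 groups (x axis), coloured by family. Right, W465A level in percent of the WT level (y axis) against reference CpGs per kb (x axis); 1 point is 1 cluster, and the shares run from 17.4% to 49.4%.

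The clusters with the lowest WT levels held CpGs near other genes. The cluster from Vmn1r4 to Vmn1r31 on chromosome 6 was at 37.7% ± 4.75 in WT. Of its CpGs, 86 also lay within 2 kb of Nt5c3, a pyrimidine nucleotidase gene, and stood at 0.85% ± 0.07 in WT. The other 267 were at 69.6% ± 11.5 in WT and 18.4% ± 5.96 in W465A. The cluster from Olfr90 to Olfr136 on chromosome 17, within the major histocompatibility complex, was at 47.1% ± 7.55. There 58 CpGs also near Ubd, which encodes the ubiquitin-like protein FAT10, were at 6.07% ± 0.96, and the other 421 at 65.9% ± 10.8. Leaving out the 545 receptor CpGs near any other protein-coding gene gave a receptor level of 70.1% ± 10.5 in WT and 22.01% ± 5.94 in W465A, and a W465A effect larger than at other genes by 9.48 points (-9.48).

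Single genes were tested with a quasi-binomial model over 19886 autosomal protein-coding genes, and calls needed a Benjamini-Hochberg adjusted p below 0.05 with 10 points or more between the groups. The 1123 receptor genes with at least 3 CpGs and 10 reads in every library could be tested (886 Olfr, 134 Vmn1r and 103 Vmn2r). The 253 other genes with a member CpG were too shallow. In W465A 1104 of 1123 receptor genes were lower than in WT, where 89.1% of all tested genes were lower. This was 871 of 886 Olfr, 130 of 134 Vmn1r and 103 of 103 Vmn2r genes, and the median difference was -51.8 points against -29.5 over all genes. In W464A/W465A 1115 were lower (90.8% of all genes), with a median difference of -59.2 against -34.2 points. In W464A/W465A/W796A 1113 were lower (91.1% of all genes), with a median of -59.1 against -35.1 points. The all-gene medians hold many CpG islands that start near 0.

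Fewer genes were called for W465A/W796A. Against WT 664 receptor genes were lower (59.1%, where 53.9% of all genes were lower), with a median difference of -30.5 against -13.7 points. Against W465A 324 were higher (28.9%, where 59.3% of all genes were higher), although the median difference was 20.5 points against 14.9 over all genes. Receptor genes had a median of 36 reads in their lowest library where all tested genes had 1106. The part of depth in the counts was not tested. With the spread pooled among genes of like read number, 935 were lower than in WT (83.3%, against 59.0% of all genes) and 616 higher than in W465A (54.9%, against 64.8%). Among the 199 receptor genes with at least 100 reads in every library, 173 were lower than in WT and 143 higher than in W465A. Of all 17721 genes above that minimum, 54.1% and 64.1% were, but these were not matched to the receptor genes in depth. The counts also rested on single libraries. Against WT 0 genes were called without WT replicate 2, W465A/W796A replicate 2 or W465A/W796A replicate 3, and 274 without WT replicate 3. Against W465A 0 were called without W465A replicate 3 or W465A/W796A replicate 1, 89 when W465A replicate 2 was left out and 211 when W465A/W796A replicate 3 was.

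For 3 comparisons no receptor gene was called in either direction, and 0.0% of all genes were. For W796A against WT 6 receptor genes had an unadjusted p under 0.05 in the quasi-binomial model, 41 in limma and 9 in edgeR. For W464A/W465A against W465A these numbers were 17, 212 and 102, and for W464A/W465A/W796A against W464A/W465A they were 0, 59 and 12. Neither limma nor edgeR had a receptor gene at an adjusted p under 0.05 in these comparisons. In data simulated for W796A against WT, the model recovered 0 of 100 receptor genes given a change of 20 points, and 7 of 100 given one of 40 points. Such counts therefore do not show that single receptor genes were alike.

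The deepest genes were named by their reads and not by their outcome. These were the 3 genes of each family with most reads in their lowest library, from different clusters. Vmn2r7 on chromosome 3, with 222 CpGs and at least 1126 reads per library, was at 62.0%, 79.4% and 77.6% in WT and at 32.8%, 20.9% and 23.0% in W465A. In W465A/W796A it was at 49.2%, 49.0% and 49.3%, between the other groups without overlap (adjusted p = 2.2e-05 for W465A and 0.0177 for W465A/W796A against WT). Vmn1r88 on chromosome 7 was at 77.4%, 86.5% and 87.4% in WT, at 46.0%, 36.4% and 37.2% in W465A, and at 62.7%, 58.3% and 56.4% in W465A/W796A. Of the Olfr genes, Olfr56 on chromosome 11 was at 57.4%, 77.5% and 75.2% in WT and at 33.5%, 18.5% and 21.4% in W465A. All 3 genes were lower in W465A than in WT, and all 3 were higher in W465A/W796A than in W465A (adjusted p = 0.0111, 0.0213 and 0.019).

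Other deep genes differed in how far they fell. Vmn2r60 on chromosome 7 was at 55.1%, 75.7% and 82.7% in WT and at 23.3%, 10.9% and 13.7% in W465A. Vmn2r53, also on chromosome 7, fell by 55.5 points in W465A. Vmn1r42 on chromosome 6 fell by 48.4 points and Olfr643 on chromosome 7 by 39.6 points. As annotated, Olfr643 takes in the whole of Olfr641, and the most-read window of Vmn1r42 overlaps an exon of Vmn1r43. Their values are thus not those of single receptor genes alone. Olfr94 and Vmn1r4, the remaining deep genes, started low. Of the 69 CpGs of Olfr94, 58 also lay within 2 kb of Ubd. Of the 118 of Vmn1r4, 86 also lay within 2 kb of Nt5c3. Olfr94 was at 8.48%, 10.1% and 9.97% in WT and at 3.02%, 2.47% and 1.87% in W465A (adjusted p = 0.000139), a difference of -7.30 points that is under the 10-point minimum. Vmn1r4 was at 7.61%, 8.43% and 11.1% in WT and at 2.63%, 3.22% and 2.08% in W465A.

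The genes with the largest differences were shallow. In W465A they were Olfr948 on chromosome 9, Olfr665 on chromosome 7 and Olfr780 on chromosome 10, with 13, 15 and 11 reads in their lowest library. Olfr948 was at 92.3%, 77.4% and 95% in WT and at 17.5%, 0% and 0% in W465A. Olfr665 was at 68.0%, 88.0% and 90.3% in WT, at 10%, 0% and 5.88% in W465A and at 14.3%, 24.0% and 28.6% in W465A/W796A. The latter gene also had the largest difference between W465A/W796A and WT (-61.4 points), followed by Olfr1233 (-57.4) and Olfr1262 (-55.2). In W464A/W465A the largest were Olfr948, Vmn1r78 and Olfr669, and in W464A/W465A/W796A Olfr1153, Olfr110 and Olfr873. These genes were picked for their size, so their tests are not repeated here.

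The largest rises from W465A to W465A/W796A were at Vmn1r208 on chromosome 13 and at Olfr1245 and Olfr1152 on chromosome 2. Olfr1152, with 14 CpGs, was at 35.8%, 19.2% and 25.5% in W465A and at 80.4%, 61.1% and 61.5% in W465A/W796A, where WT was at 73.7%, 84.7% and 94.6%. In Vmn1r208, with 4 CpGs and at least 11 reads, W465A stood at 63.6%, 7.14% and 23.8% and W465A/W796A at 77.3%, 82.4% and 77.8%. The latter overlapped with WT, at 69.2%, 88.0% and 86.7%.

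Of 15 receptors known by name 13 could be tested, all but Olfr151 and Olfr73. All but Olfr160 were called lower in W465A than in WT, as were 89.1% of all tested genes. Olfr2, the octanal receptor, was at 68.7%, 82.8% and 87.7% in WT, at 23.0%, 27.1% and 13.4% in W465A and at 55.6%, 49.2% and 44.9% in W465A/W796A. Olfr78, a short-chain fatty acid receptor also expressed in the carotid body, was at 64.5%, 80.5% and 88.2% in WT and at 36.1%, 8.33% and 18.4% in W465A. Olfr545, a receptor for azelaic acid, fell by 54.9 points in W465A and Olfr558, a receptor for isovaleric acid, by 43.2 points. Olfr16, a receptor for lyral, fell by 57.5 points, Olfr17 by 58.3 points and Olfr1507 by 50.7 points. Olfr160 had 5 CpGs and was at 44.4%, 70.8% and 78.6% in WT and at 50%, 24.0% and 31.0% in W465A, with an adjusted p of 0.0927.

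All 5 vomeronasal receptors of that list were lower in W465A than in WT (89.1% of all genes). Vmn2r26, which responds to peptides, was at 60.2%, 80.2% and 74.8% in WT, at 35.0%, 18.4% and 18.6% in W465A and at 54.9%, 38.9% and 41.5% in W465A/W796A. Vmn2r1, expressed broadly with other type 2 receptors, was at 69.2%, 81.6% and 85.9% in WT and at 39.3%, 27.3% and 24.6% in W465A. Vmn2r116, the receptor for the male tear peptide ESP1, was at 51.9%, 70.4% and 74.0% in WT and at 26.8%, 6.45% and 7.53% in W465A. In W465A/W796A Vmn2r116 was at 21.4%, 30.6% and 22.9%, which overlapped with W465A (adjusted p = 0.252). Vmn1r49 fell by 48.4 points and Vmn1r85 by 50.3 points in W465A.

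Few receptor genes were unmethylated in WT. Over the 1123 tested genes the WT group means ran from 9.03% to 92.6% with a median of 71.5%, and 5 were under 20%. Those were Vmn1r4, Olfr94, Olfr95, Olfr641 and Olfr845. Most CpGs of Vmn1r4 and Olfr94 also lay within 2 kb of another gene. Olfr95, a neighbour of Olfr94 on chromosome 17, was at 7.80%, 21.1% and 13.2% in WT. Olfr641 on chromosome 7 was at 7.03%, 23.3% and 12.6%, and its densest window is also that of Olfr643. The highest WT means were at Olfr113, Olfr1055, Olfr873, Olfr1153 and Olfr603. Olfr113 on chromosome 17 was at 94.7%, 88.8% and 94.4% in WT and at 25.7%, 47.1% and 18.4% in W465A. In W465A the genes ran from 0% to 49.1% with a median of 19.9%, and in W464A/W465A 959 of them were under 20%.

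Of the 1123 genes, 19 were not called in W465A against WT. Olfr94 and Vmn1r4 passed the test but not the 10-point minimum. The other 17, such as Olfr112, Olfr25 and Vmn1r168, had differences of -15.2 to -39.5 points and adjusted p-values of 0.0503 to 0.138. They had 10 to 65 reads in their lowest library. Other genes with as few reads were called, and the part of depth was not tested.

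Genes that act with the receptors were counted as lists, and the single genes named from them were chosen after their values were seen. Of 24 genes of olfactory signalling and receptor choice, all tested, 23 were lower in W465A than in WT (89.1% of all genes), 16 were lower in W465A/W796A (53.9%), and 13 were higher in W465A/W796A than in W465A (59.3%). Their median difference in W465A was -28.7 points, close to the -29.5 over all genes. Omp, a marker of mature olfactory neurons, was at 66.5% ± 10.004 in WT and 26.1% ± 6.14 in W465A. Cnga4, a subunit of the olfactory cyclic nucleotide channel, was at 76.7% ± 7.62 and 31.8% ± 14.9, and Trpc2, the vomeronasal transduction channel, at 68.1% ± 12.3 and 27.7% ± 6.49. Lhx2, a transcription factor of receptor choice with a CpG-rich gene, was at 12.9% ± 4.23 in WT and differed by -7.80 points. Of 60 other chemoreceptor genes (Taar, Fpr, Tas1r and Tas2r families) 36 were tested. All 36 were lower in W465A (89.1% of all genes), with a median of -51.9 points where that of the receptor genes was -51.8. Of them 19 were lower in W465A/W796A than in WT (53.9%) and 11 higher than in W465A (59.3%). Taar5, a trimethylamine receptor, was at 79.7% ± 6.96 in WT and 22.7% ± 4.99 in W465A.

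Receptor genes with near-identical copies had a smaller share of their CpGs read, mainly in the Vmn1r and Vmn2r families. The coding sequence of each gene was matched to those of the other receptor genes, over at least 80% of its length. The 145 genes with a copy of 98% identity or more had 11.6% of their listed CpGs read in all libraries, against 21.1% at the 657 genes whose closest copy was under 90%. Of those 145 genes 53 had no member CpG. Among Vmn1r genes this was most marked, with 41 of 60 such genes without a member CpG and 5.19% of CpGs read. For Vmn2r, 8 of 26 such genes had no member CpG, and 10.2% of CpGs were read against 20.1% under 90% identity. At Olfr genes 18.3% were read in that class and 20.8% under 90% identity. The cluster from Vmn1r91 to Vmn1r183 on chromosome 7, named after its values were seen, had 65 genes but 113 member CpGs. The part of copies in the reads lost was not tested, and values at genes with near-identical copies are uncertain.

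**Figure D5:**
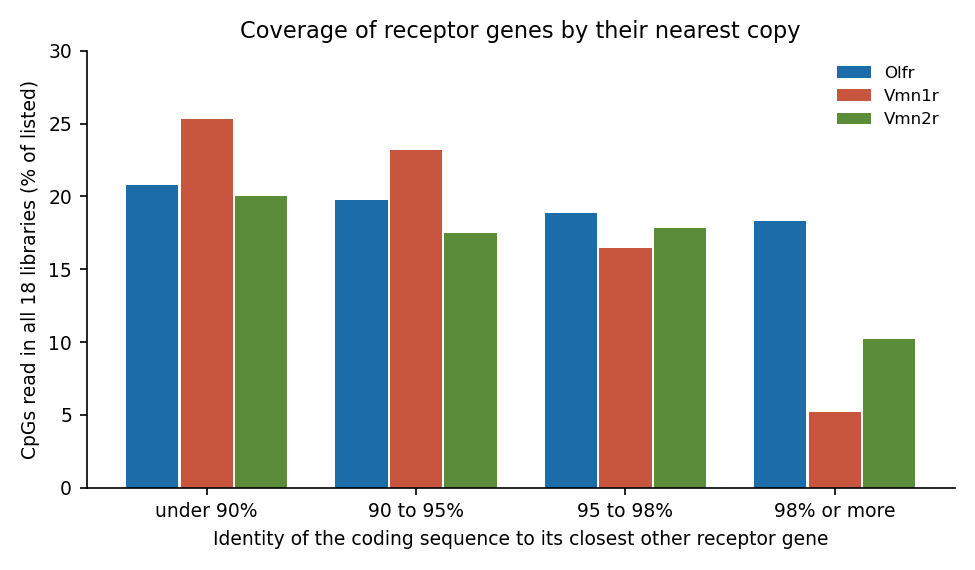
Share of listed CpGs read in all 18 libraries in percent (y axis) by the identity of a gene's coding sequence to its closest other receptor gene (x axis), for Olfr, Vmn1r and Vmn2r genes (bars). For Vmn1r genes the share is 5.19% at 98% identity or more and 25.3% under 90%, and for Vmn2r genes 10.2% and 20.1%.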

How the data were processed

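Enhanced reduced representation bisulfite sequencing was done on 18 libraries in 6 groups of 3, grouped by their titles. The authors deposited 1 table of methylated and all read counts per CpG, per the file headers. Per the submitters' processing notes the tools were cutadapt 1.2.1, Bismark 0.18.1 and Bowtie 1.2, with GRCm38 (mm10). Duplicate removal and filters are not given in the sources used here, and the empty-vector cells named in the labels were not analysed here. Reads are not counted by molecule, so counting errors are lower limits.

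Genes came from GENCODE M21. The level was the sum of methylated reads over the sum of all reads, per library. Groups were compared with exact two-sided permutation tests, stratified by background for effects over several backgrounds, with Benjamini-Hochberg adjustment over 12 tests of level and over 8 tests of differences. Single genes with at least 3 CpGs and 10 reads in every library entered a logistic model with quasi-binomial errors over all 6 groups with overdispersion squeezed across genes, an F test and Benjamini-Hochberg adjustment over 19886 genes. limma 3.58.1 and edgeR 4.0.16 (R 4.3.3) were alternatives, on reads of these counts with 0.5 added on the log scale for limma. The model was tested on simulated data of 19886 genes. For W465A/W796A against W465A it recovered 0 of 100 receptor genes given a change of 20 points, and 1 of 100 given one of 40 points. All other genes were simulated alike in both groups, whereas 59.3% of all genes were called higher in the real comparison. The adjusted threshold was thus stricter in the simulation, which does not give the power of the real comparison. Python 3.11.15, numpy 2.4.6, pandas 2.3.3, scipy 1.17.1 and matplotlib 3.10.9 were used, and blastn 2.17.0 for coding sequence identity.

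The members and gene lists were chosen with earlier results of these data known. Named genes were the 3 deepest tested genes per family from different clusters, the 3 called genes with the largest difference and no overlap per comparison, the 5 lowest and 5 highest in WT, and receptors known by name. Named clusters were the 3 with most CpGs per family and the lowest and highest in WT; other clusters were named after their values were seen. Same-numbered libraries deviated together in every pair only for WT and W796A (r = 0.51, 0.34 and 0.22 over 19886 genes). The highest r between differently numbered libraries of these groups was 0.21, and the labels name no pairing. Whether the numbers pair the libraries was therefore not shown. The tests reported are unpaired, and the fit with the number as a block was an alternative. Alternatives were read minimums, CpG means, gene bodies only, a coverage limit, the log2 scale, other tools and each library left out.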

Additional observations from a re-analysis of the deposited data

How the results depend on the processing

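Over 714 alternatives, 631 left a result on its side of the threshold with its direction, or a count within 1.5 times. The 8 comparisons of groups of 3 could not reach the threshold under any, so their p-values say nothing about stability. Causes of the changes below were not tested.

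At CpGs with at least 3 reads, at least 5 reads, or counted once each, the effect of adding W464A was -16.6, -15.8 and -17.1 points and missed the threshold (adjusted p 0.06 each). The difference of that effect from other genes was 0.016 at 3 reads and turned to -0.69 at 5 reads, to -5.39 without standardising for density and to -0.17 on the log2 scale. It missed the threshold against CpGs outside genes (0.71), against CpGs between receptor genes (1.03) and without CpGs near another gene (0.82). Against CpGs between receptor genes, the W465A difference was -0.69, that of W464A/W465A turned to 0.34 and that of W796A to -0.34. The W796A difference passed without standardising (3.35), on the log2 scale (0.13) and without WT replicate 1 and W796A replicate 1 (1.09), as did the W796A effect on the level (8.13).

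The W465A difference between vomeronasal and olfactory genes turned to 0.45 at 3 reads, 1.13 at 5 reads and 0.21 without those 2 libraries. It passed at -0.75 with CpGs counted once, -2.77 inside genes and -0.053 on the log2 scale. For W464A/W465A it turned to -2.34 inside genes and to -0.037 on the log2 scale, and passed at 1.32 without the 2 libraries. For adding W464A it passed at 0.95 with CpGs counted once and at 1.10 without the 2 libraries.

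With at least 10 CpGs and 50 reads, which leaves 418 receptor genes tested, 416 were called for W465A, 416 for W464A/W465A, 416 for W464A/W465A/W796A and 330 for W465A/W796A against WT, and 191 against W465A. The count for W465A/W796A against WT was 279 with only those groups fitted and 427 of 769 tested inside genes. Against W465A it was 209 of 769 inside genes, and of the 1123 genes 552 without squeezing, 616 with squeezing among genes of like read number, 743 in limma and 626 in edgeR.

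With the replicate block, the effects kept their values and missed the adjusted threshold: -37.7 for W465A, -54.6 for W464A/W465A and -16.9 for adding W464A (adjusted p 0.188, exact permutation), and -9.08, -8.15 and 0.94 for their differences from other genes (adjusted p 0.0833, 0.0833 and 0.125). The block leaves few arrangements, so the smallest p was 0.0312. The same-numbered libraries deviated together only for WT and W796A, where 0 genes were called with the block as without it.

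Leaving out each library in turn gave -41.6 to -35.2 points for W465A, -58.4 to -52.1 for W464A/W465A, -17.8 to -15.2 for adding W464A and 5.58 to 10.1 for W796A. The differences from other genes were -9.79 to -8.45, -8.86 to -7.51, 0.64 to 1.14 and 0.76 to 1.66. Those of vomeronasal from olfactory genes were -0.50 to 0.072, 0.60 to 1.17, 0.95 to 1.29 and 0.08 to 0.44. W796A minus WT was -3.93 to 9.61, with -3.07 and -0.68 among its values. W464A/W465A/W796A minus W464A/W465A was -0.63 to 2.43, with -0.40 and -0.50 among its values. The W796A effect in W464A/W465A minus that in WT was -9.14 to 4.39, with 3.53, 1.15 and 0.48 among its values. Gene counts were 989 to 1111 for W465A, 1072 to 1115 for W464A/W465A, 1082 to 1117 for W464A/W465A/W796A, 0 to 853 for W465A/W796A against WT and 0 to 395 against W465A. Single receptor genes had a median of 36 reads in their lowest library, and the part of depth in their calls was not tested.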
